A study of Mus musculus with 3 samples.

Results

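The 10 genes described here encode transcription factors of lymphoid and dendritic cell development, and their DNA methylation was followed through 3 stages of osteoclast differentiation in culture. They are Ebf1 and Pax5 of the early B cell lineage, the Ikaros family members Ikzf1, Ikzf2 and Ikzf3, the E proteins Tcf3, Tcf4 and Tcf12, and the T cell factors Gata3 and Tox. They were chosen by name, with results of these data known, and a region was counted for a gene when it overlapped the annotated span of that gene by 1 bp or more. In all, 539 entries of the authors' 3 region tables fell in these genes, out of 547915, and they covered 429 distinct regions out of 432641. The material was bone marrow of C57BL/6 mice aged 11 weeks, and the number of animals is not stated in the sources used here. Cells still floating after 24 h of culture became bone marrow macrophages (BMM) over 72 h with M-CSF, a macrophage growth factor, at 50 ng/mL. Preosteoclasts (pOC) were BMM kept for 24 h in 30 ng/mL M-CSF and 100 ng/mL RANKL, the cytokine that induces osteoclasts. Mature osteoclasts (mOC) had 72 h or longer in the same mixture. Whole-genome bisulfite sequencing, which reads methylated cytosines as unconverted bases, was made from 1 library per stage.

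Stage differences have no replicate check, because a stage is 1 library, and no test was made. The methylation level of a region is the percentage of reads that were methylated, summed over its cytosines. Its 95% interval is the exact Clopper-Pearson interval, and the interval of a difference between libraries is Newcombe's. These intervals cover counting error only, and they are too narrow because a read that spans several cytosines is counted several times. The tables list only regions selected for a difference of 20 percentage points or more between the libraries compared, with at least 4 cytosines and at least 16 reads in each library. The directions and sizes given below therefore describe regions that were picked for differing, and regions under 20 points are not analysed here. The pOC library enters 2 of the 3 comparisons, as do the other libraries, so the comparisons are not independent of each other. All read numbers of regions are sums over their cytosines, so the depth at a single cytosine is lower. The median of these sums over the members' regions lay between 29 and 37 per library. The stage labels could not be checked against marker genes, because the tables hold methylation and no expression.

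Lymphoid cells arise from progenitors that also give rise to macrophages and osteoclasts, and transcription factors set which lineage is followed. E proteins are basic helix-loop-helix factors that bind E-box sequences as dimers, and together with EBF1 and PAX5 they establish the B cell program. Ikaros family zinc finger proteins act across lymphoid development, GATA3 and TOX act in T cell development, and the E protein E2-2, encoded by Tcf4, is the lineage factor of plasmacytoid dendritic cells. In mammalian genomes most CG cytosines are methylated, while CG-rich gene starts are usually unmethylated.

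The sequences just before the starts of Pax5 and Ikzf1 are shown because Pax5 had a listed region beside its start, while the pair of Ikzf1 starts differed in CG content. They are the 250 bases upstream of each start, read 5′ to 3′ on the strand of the gene from RefSeq (GRCm38.p6), with each CG dinucleotide in capitals. The Pax5 sequence lies on the minus strand at chr4:44710695-44710944 and holds 19 CG dinucleotides. The Ikzf1 sequences lie on the plus strand at chr11:11685675-11685924, with 44 CG dinucleotides, and at chr11:11689927-11690176, with 1.
Pax5: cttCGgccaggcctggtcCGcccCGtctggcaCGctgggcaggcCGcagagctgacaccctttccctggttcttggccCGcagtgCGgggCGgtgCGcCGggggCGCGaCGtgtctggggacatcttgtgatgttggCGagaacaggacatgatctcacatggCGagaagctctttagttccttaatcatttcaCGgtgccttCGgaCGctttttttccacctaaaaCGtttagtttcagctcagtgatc
Ikzf1 upstream start: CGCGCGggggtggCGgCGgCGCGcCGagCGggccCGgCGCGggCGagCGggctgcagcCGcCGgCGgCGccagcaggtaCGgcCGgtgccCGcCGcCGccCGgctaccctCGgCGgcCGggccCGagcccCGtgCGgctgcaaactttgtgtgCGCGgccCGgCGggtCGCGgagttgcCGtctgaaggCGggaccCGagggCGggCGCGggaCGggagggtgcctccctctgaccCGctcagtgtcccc
Ikzf1 downstream start: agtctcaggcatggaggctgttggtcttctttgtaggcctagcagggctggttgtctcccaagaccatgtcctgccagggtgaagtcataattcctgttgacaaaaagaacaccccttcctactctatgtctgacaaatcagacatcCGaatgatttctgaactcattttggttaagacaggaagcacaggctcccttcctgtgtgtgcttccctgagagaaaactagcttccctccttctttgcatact

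No listed region of any table overlapped these start windows. RefSeq windows of 300 bases around a start, covering 10 starts, were found for Ebf1, Pax5, Ikzf1, Tcf3, Tcf12 and Gata3, and 0 of the 10 held a listed region in any of the 3 comparisons. Over all 32851 such windows, 964 (2.93%) held one for pOC against BMM, 831 (2.53%) for mOC against pOC and 244 (0.743%) for mOC against BMM, so 0 of 10 is close to the background. The member windows held a median of 22.5 CG dinucleotides, against 7 over all windows. The CG-rich Ikzf1 window had 52 and the Tcf12 windows 41, 45 and 0. Distances from a start to the nearest listed region ran from 92 bp in Pax5 to 7835 bp in Tcf3. They were 1576 and 2477 bp for the Ikzf1 starts, 2399 bp for Gata3, 2705 to 4219 bp for Tcf12 and 3974 and 6102 bp for Ebf1.

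The first comparison asked how methylation in these genes stood after 24 h of RANKL. Of 285 listed regions in the 10 genes, 271 (95.1%) were lower in pOC, where 92.9% of all 251946 listed regions were lower. The members' share is near that of the genome, and the listing used this same contrast. Their median level was 88.0% in BMM and 55.2% in pOC, while over all listed regions the medians were 80.0% and 48.6%. The median size of the difference was 30.3 points in the members and 29.3 points over all. Each of the 10 genes held a region, as did 67.2% of 21887 protein-coding genes. That share covers genes of any length, while the 10 genes span 24.4 to 390 kb. Longer genes hold more regions, so the share is not a matched background for the members.

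**Figure D1:**
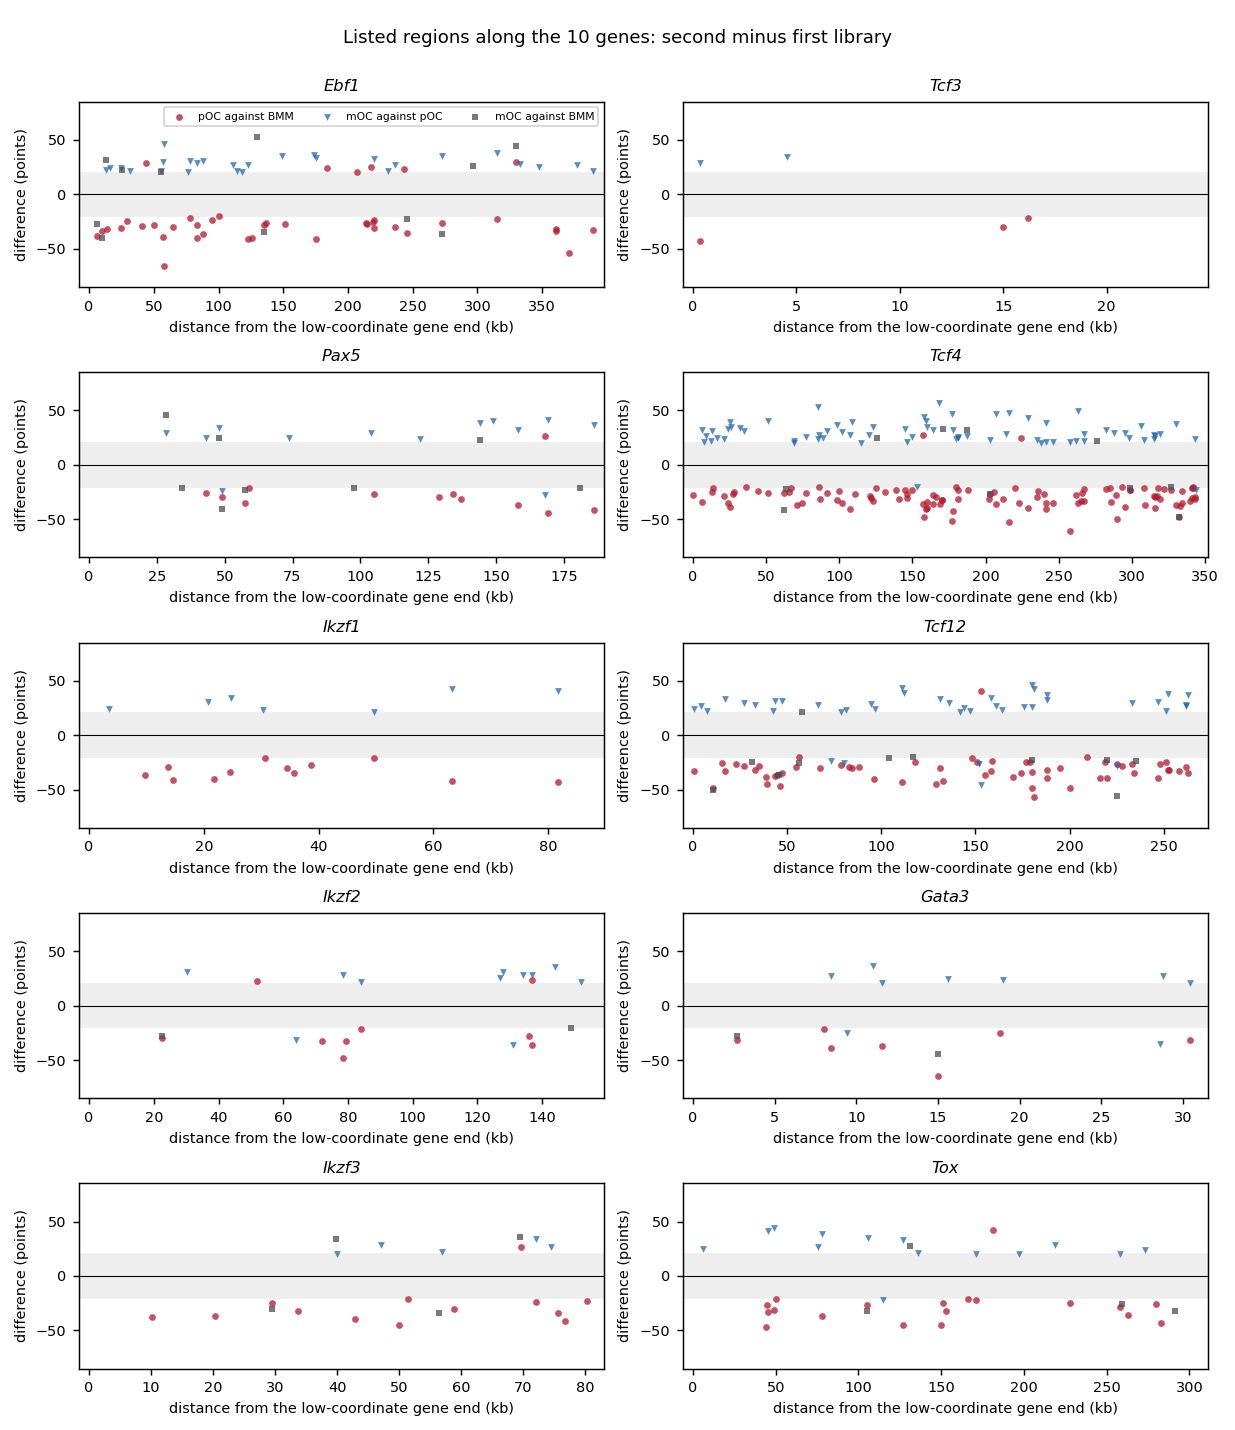
Position of each listed region along the 10 genes, with distance from the low-coordinate end of the gene in kb on the x axis and the difference between libraries in percentage points on the y axis. Circles are pOC minus BMM, triangles mOC minus pOC and squares mOC minus BMM. The grey band between -20 and 20 points is empty because only larger differences were listed. Circles lie mostly below 0 and triangles mostly above 0 along the whole length of Tcf4 and Tcf12.

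The E protein genes held 172 of the 285 regions, and 169 of these were lower in pOC. Tcf4 had 107 lower and 2 higher regions, Tcf12 had 59 lower and 1 higher, and Tcf3, which encodes the E12 and E47 forms of E2A, had 3 lower and 0 higher. The median level of E protein regions was 91.7% in BMM and 60.7% in pOC. Set against gene length, Tcf4 held 31.6 listed regions per 100 kb of its 345 kb span, the most of the 10 genes. Tcf12, the gene of HEB, held 22.4 per 100 kb and Tcf3 12.3. Across 10039 protein-coding genes of 20 kb or more the median was 14.3 per 100 kb, with quartiles of 7.11 and 22.5. Tcf4 thus lay above the upper quartile, higher than 92.2% of those genes, while Tcf12 lay just under it.

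**Figure D2:**
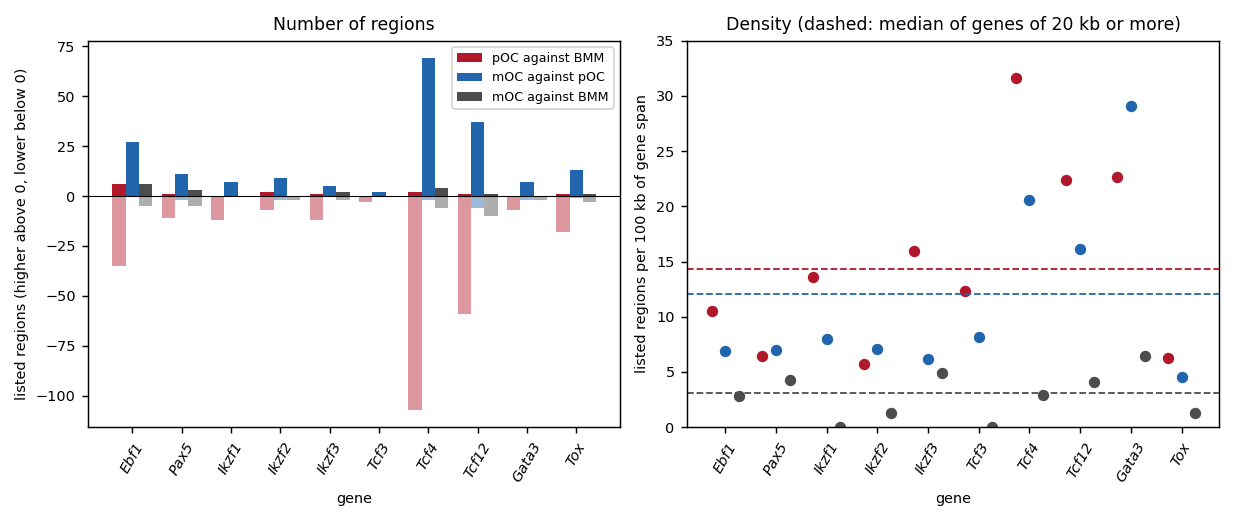
Left, number of listed regions per gene, with regions higher in the later stage drawn above 0 and lower ones below 0. Right, listed regions per 100 kb of gene span, with dashed lines at the median of protein-coding genes of 20 kb or more (14.3, 12.1 and 3.08 for pOC against BMM, mOC against pOC and mOC against BMM). Tcf4 stands highest for pOC against BMM at 31.6 and Gata3 highest for mOC against pOC at 29.1.

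Listed regions lay along the whole Tcf4 span, with 6 to 20 regions in each of 10 equal stretches for pOC against BMM. The most within 10 kb were 9 regions between 69500201 and 69509200 on chromosome 18, with medians of 83.7% in BMM and 47.1% in pOC. The Tcf4 region with the most reads, chr18:69606201-69607200, was also the widest of all members at 1000 bp and 44 cytosines. It was at 97.4% in BMM (94.4 to 99.0, 228 reads) and 62.1% in pOC (55.6 to 68.2, 240 reads), a difference of -35.3 points (-41.7 to -28.7). The Tcf4 region furthest below BMM was chr18:69601001-69601200, with 66.7% of 21 reads in BMM and 5.56% of 18 reads in pOC. The interval of that difference, -77.9 to -31.8 points, is much wider than that of the 1000 bp region. At the low-coordinate end of the gene, a region spanning the annotated boundary (chr18:69343401-69343600) was at 96.0% in BMM and 68.2% in pOC. At the other end, chr18:69686001-69686200 was at 88.4% and 58.9%, and chr18:69686401-69686600 at 92.0% and 60.5%. These regions near the ends of Tcf4 were lower in pOC, like most regions between them. A region still closer to the high-coordinate end, chr18:69687601-69687800, 167 bp from it, was at 81.8% in pOC. It was not listed for pOC against BMM.

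In Tcf12 the region furthest below BMM, chr9:72025201-72025400, was at 100% in BMM (88.1 to 100, 29 reads) and 43.2% in pOC (28.3 to 59.0, 44 reads). The difference was -56.8 points (-70.3 to -38.1), and the level in mOC was 85.2% (66.3 to 95.8, 27 reads). The Tcf12 region with the most reads for pOC against BMM, chr9:72106201-72106400, lay 5493 bp from the high-coordinate end of the gene. It was at 93.2% of 117 reads in BMM, 63.7% of 91 reads in pOC and 91.4% in mOC. A single Tcf12 region was higher in pOC. That region, chr9:71997001-71997200, was at 26.9% in BMM (11.6 to 47.8, 26 reads), 67.6% in pOC (50.2 to 82.0, 37 reads) and 21.4% in mOC (8.30 to 41.0, 28 reads). Here pOC was the highest stage, whereas it was the lowest in the other Tcf12 regions named so far. Of the 3 Tcf3 regions, chr10:80409801-80410000 lay 260 bp from the low-coordinate end, where the gene, on the minus strand, ends. It was at 98.6% in BMM (71 reads), 55.8% in pOC (52 reads) and 84.4% in mOC (45 reads). The Tcf3 region with the most reads, chr10:80425601-80425800, was at 79.7% in BMM and 57.7% in pOC, a difference of -22.0 points (-35.8 to -6.91).

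Ebf1 and Pax5 differed from the E proteins in the level at which their regions stood. Ebf1, which encodes the factor that specifies the B lineage, had 35 lower and 6 higher regions in pOC, and Pax5, the gene of the B lineage commitment factor, had 11 lower and 1 higher. The median over their regions was 52.6% in BMM and 27.5% in pOC, against 91.7% and 60.7% in the E protein genes. Only 6 of 41 Ebf1 regions were at 80% or more in BMM, compared with 93 of 109 in Tcf4 and 54 of 60 in Tcf12. Over all listed regions 50.5% were at 80% or more. The regions of 1 gene share a library and are not replicates, so these medians are a description and were not tested. Ebf1 held 10.5 regions per 100 kb and Pax5 6.45, the latter under the lower quartile of 7.11.

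**Figure D3:**
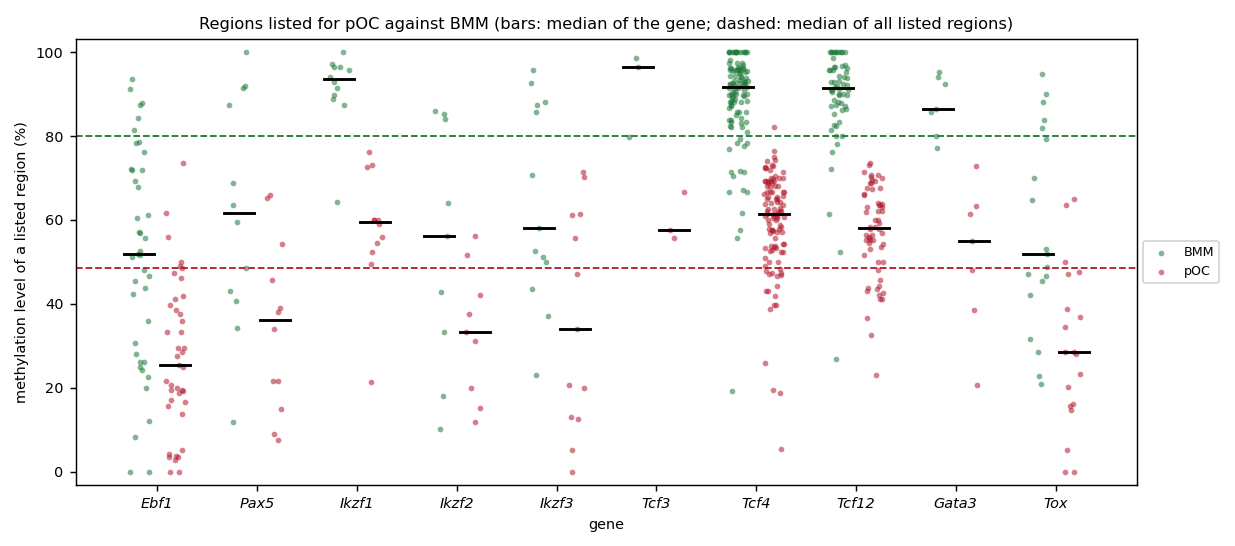
Methylation level in percent of each region listed for pOC against BMM, by gene, with BMM in green and pOC in red. Each point is 1 region in 1 library, bars are medians of the gene, and dashed lines are the medians of all listed regions (80.0% in BMM and 48.6% in pOC). BMM points of Tcf4, Tcf12 and Ikzf1 crowd above the upper line, while those of Ebf1 run from 0% to 93.5% and those of Tox from 20.9% to 94.7%.

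The greatest difference in any member between BMM and pOC was in Ebf1, at chr11:44676002-44676201. This region of 8 cytosines was at 91.2% in BMM (81.8 to 96.7, 68 reads), 25.5% in pOC (14.7 to 39.0, 55 reads) and 71.9% in mOC (53.3 to 86.3, 32 reads). The difference was -65.7 points from BMM to pOC (-76.5 to -50.0) and 46.4 points from pOC to mOC (24.9 to 62.3). The mOC level lay below that of BMM, at -19.3 points (-37.2 to -3.78), and this region was not listed for mOC against BMM. Near the far end of Ebf1, chr11:45007202-45007601 was at 72.0% of 125 reads in BMM and 39.7% of 131 reads in pOC. Within that stretch the 200 bp region chr11:45007402-45007601, listed for mOC against pOC, was at 38.5% in pOC and 59.8% in mOC.

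The 6 Ebf1 regions that were higher in pOC started from low levels, between 0% and 24.3% in BMM. Their median was 10.2% in BMM and 34.6% in pOC. In the one with the greatest increase, chr11:44947802-44948001, 0 of 17 reads were methylated in BMM, which allows up to 19.5% by the exact interval. The level was 29.4% in pOC (10.3 to 56.0, 17 reads) and 44.4% in mOC, so it was lowest in BMM. Over the 10 genes, 14 regions were higher in pOC, in 7 genes, with medians of 18.7% in BMM and 44.4% in pOC.

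The Pax5 region beside the gene start had the highest summed read count of that gene. It covered chr4:44710203-44710602, with 14 cytosines, and its nearer edge was 92 bp inside the gene from the start whose upstream sequence is printed above. The level was 87.4% in BMM (80.6 to 92.5, 135 reads), 45.8% in pOC (36.7 to 55.2, 120 reads) and 82.5% in mOC (74.5 to 88.8, 120 reads). The difference was -41.6 points from BMM to pOC (-51.4 to -30.5) and 36.7 points from pOC to mOC (24.8 to 47.1). BMM and mOC stood side by side, with overlapping intervals, and pOC was well below both. Further into the gene, 16892 and 17492 bp from that end, regions 400 bp apart went opposite ways. Of these, chr4:44693003-44693202 was at 12.0% in BMM, 38.1% in pOC and 10% in mOC, while chr4:44693603-44693802 was at 59.5%, 14.9% and 55.9%. The intervals are wide in the first of the pair, with 21 to 30 reads per library, and the BMM to pOC difference of 26.1 points had an interval of 1.13 to 48.5.

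Among the Ikaros family genes, Ikzf1 (Ikaros) had 12 lower and 0 higher regions in pOC, Ikzf2 (Helios) 7 lower and 2 higher, and Ikzf3 (Aiolos) 12 lower and 1 higher. Ikzf1 regions stood high in BMM, with a median of 93.5% and 59.5% in pOC. Ikzf2 regions had medians of 56.1% and 33.3%, and Ikzf3 regions 58.1% and 34.0%. The widest Ikzf1 region, chr11:11748002-11748601, held 26 cytosines over 600 bp and was at 91.4% in BMM (85.4 to 95.5, 139 reads) and 49.6% in pOC (40.8 to 58.5, 131 reads). A 200 bp stretch inside it, chr11:11748202-11748401, was listed for mOC against pOC at 47.6% of 21 reads and 90.0% of 20 reads.

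In Ikzf2 the pOC level was furthest below BMM at chr1:69609603-69609802, with 85.2% in BMM, 37.5% in pOC and 65.4% in mOC. The Ikzf2 region with the most reads, chr1:69553603-69553802, was at 85.9% of 78 reads in BMM, 56.1% of 82 reads in pOC and 58.1% of 43 reads in mOC, so mOC stood near pOC there. In Ikzf3 the greatest difference was at chr11:98514402-98514601, with 50.0% of 16 reads in BMM and 5.26% of 19 reads in pOC. An Ikzf3 region 1030 bp from the high-coordinate gene end, chr11:98544802-98545001, was at 23.1% of 26 reads in BMM and 0% of 19 reads in pOC, where the exact interval reaches 17.6%. These Ikzf3 regions rest on few reads. A better read one, chr11:98523402-98523601, was at 51.1% of 45 reads in BMM and 20.6% of 63 reads in pOC.

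Of the T cell factors, Gata3, which directs T helper cell differentiation, had 7 lower and 0 higher regions in pOC. Tox, the gene of an HMG-box factor of T cell development, had 18 lower and 1 higher. Gata3 held 22.7 regions per 100 kb in a span of 30.9 kb and Tox 6.23 in a span of 305 kb. Gata3 regions stood at a median of 86.5% in BMM and 55.1% in pOC, and Tox regions at 51.9% and 28.6%. The Gata3 region chr2:9872002-9872201 had a difference almost as large as the greatest one in Ebf1, from 85.7% in BMM (63.7 to 97, 21 reads) to 20.6% in pOC (8.70 to 37.9, 34 reads), and was at 41.2% in mOC (18.4 to 67.1, 17 reads). The Gata3 region with the most reads, chr2:9865002-9865201, had one of the smaller differences, from 94.1% of 118 reads to 72.9% of 107 reads.

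In Tox, chr4:6730603-6730802 was at 94.7% of 19 reads in BMM and 47.6% of 21 reads in pOC. The better read neighbour chr4:6735403-6735602 was at 46.7% in BMM, 15.8% in pOC (57 reads) and 59.5% in mOC (42 reads). Both lay in the stretch of 5 regions, from 6730603 to 6736602 on chromosome 4, that was the densest of Tox for pOC against BMM. The single Tox region that was higher in pOC, chr4:6867403-6867602, was at 22.9% of 35 reads in BMM and 65.0% of 20 reads in pOC.

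The next comparison asked how methylation at 72 h or more of RANKL stood against 24 h. Listed regions in the 10 genes were mostly higher in mOC, at 187 of 202 (92.6%), where 89.1% of all 226632 listed regions were higher. The share is again near that of the genome. All 10 genes held a region, as did 67.0% of protein-coding genes, a share that is not matched for gene length. The members' medians were 55.8% in pOC and 83.3% in mOC, against 46.6% and 73.9% over all listed regions. Ebf1 had 27 higher and 0 lower regions, Tcf4 69 and 2, and Tcf12 37 and 6. Pax5 had 11 higher and 2 lower, Ikzf2 9 and 2, Gata3 7 and 2, and Tox 13 and 1. Ikzf1, Ikzf3 and Tcf3 had 7, 5 and 2 higher regions and 0 lower. The deposited p-values of this table reach 0.0917, against 0.0500 in the others. The interval of the difference covered 0 in 27 of the 202 regions here and in 0 regions of either other comparison.

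Gata3 held the most of these regions for its length, 29.1 per 100 kb, where the median of long genes was 12.1 with quartiles of 6.78 and 17.9. Tcf4 followed with 20.6 and Tcf12 with 16.1, and the other 7 genes had between 4.59 and 8.18. Of the 9 Gata3 regions, 3 also overlap another annotated gene, so they cannot be assigned to Gata3 alone. The greatest increase in Gata3 was at chr2:9868002-9868201, from 48.9% of 45 reads in pOC to 85.1% of 74 reads in mOC. In Tcf4 it was at chr18:69511801-69512000, from 29.0% of 31 reads to 85.7% of 35 reads, a difference of 56.7 points (33.5 to 71.9). In Tcf12 it was at chr9:72024601-72024800, from 53.6% of 56 reads to 100% of 25 reads. The E protein regions reached a median of 89.7% in mOC, the Ebf1 and Pax5 regions 56.3%.

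The other 15 regions were lower in mOC, from a median of 67.6% in pOC to 39.1% in mOC, and 6 of them were in Tcf12. The Tcf12 region chr9:71889801-71890000 was at 91.3% in BMM, 91.4% in pOC and 55% in mOC, so the lower level was seen in mOC alone. In Ikzf2, chr1:69662403-69662602 was at 60% of 30 reads in pOC and 23.5% of 17 reads in mOC. The Ikzf1 region nearest to a start, chr11:11688402-11688601, was at 33.3% of 27 reads in pOC and 57.6% of 33 reads in mOC, with an interval of the difference from -0.981 to 45.4. That interval covers 0. So does the one for chr18:69687601-69687800, 167 bp from the high-coordinate end of Tcf4, which was at 81.8% of 33 reads in pOC and 58.3% of 24 reads in mOC (-45.2 to 0.147).

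The last comparison asked what differed between mOC and BMM. The 10 genes held 52 listed regions, of which 35 (67.3%) were lower in mOC, where 58.9% of all 69337 listed regions were lower. Of the 35, 10 lay in Tcf12 alone, and a share of only 52 regions was not tested against that of the genome. A region was found in 8 of the 10 genes, all but Ikzf1 and Tcf3, while 44.7% of protein-coding genes held one. That share too is not matched for gene length. The medians were 68.3% in BMM and 54.6% in mOC, against 62.1% and 55.8% over all listed regions. Tcf12 had 10 lower and 1 higher regions and Ebf1 had 5 lower and 6 higher. Tcf4 had 6 lower and 4 higher, so the gene with 109 regions for pOC against BMM had 10 here. Fewer regions were listed in genes at large too. The median of protein-coding genes of 20 kb or more was 14.3 per 100 kb for pOC against BMM and 3.08 here. Tcf4 stood near the latter, at 2.90. Pax5 had 5 lower and 3 higher, Ikzf3 2 and 2, Tox 3 and 1, and Ikzf2 and Gata3 2 lower and 0 higher each.

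The Tcf4 region with the greatest difference between mOC and BMM, chr18:69675201-69675400, also had the most reads in Tcf4 for that comparison, over 16 cytosines. It was at 88.0% in BMM (79.6 to 93.9, 92 reads), 39.7% in pOC (141 reads) and 39.7% in mOC (28 to 52.3, 68 reads). Here mOC stood at the level of pOC, and differed from BMM by -48.3 points (-60.3 to -33.9). In Pax5, chr4:44573403-44573602 was at 44.0% of 50 reads in BMM, 27.8% in pOC and 3.33% of 30 reads in mOC, with an interval of 0.0844 to 17.2 in mOC. Also in Pax5, chr4:44553003-44553202 went the other way, at 24.0% of 50 reads in BMM, 41.0% of 61 reads in pOC and 69.8% of 43 reads in mOC. In Ebf1 the greatest increase was at chr11:44747802-44748001, from 31.4% of 35 reads in BMM to 83.9% of 31 reads in mOC (29.1 to 68.2 points). In Gata3, chr2:9859602-9860001 was at 80.0% of 75 reads in BMM, 48.0% in pOC and 51.9% of 104 reads in mOC.

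A level in all 3 libraries could be read for 108 regions, those with the same start and end in at least 2 tables. Their medians were 87.5% in BMM, 53.8% in pOC and 82.0% in mOC. Of the 108, the level was lowest in pOC in 92, in mOC in 14 and in BMM in 2, and it was highest in pOC in 3. These counts were not made over the whole genome, so they are not read as a trait of the members. In a few of the 14, such as the Tcf4 region at 39.7% in both, mOC was below pOC by far less than the counting error. Among the 3 highest in pOC, Tcf12 chr9:71889801-71890000 was at 91.3% in BMM and 91.4% in pOC, likewise a near tie. A region enters by differing in at least 2 comparisons, so a middle stage apart from both others is partly a result of how they were found. For the 84 regions listed in both tables with pOC, the medians were 89.4%, 55.4% and 85.5%, and those of all 82392 such regions in the genome were 81.0%, 46.8% and 79.2%. The order of these medians is the same in the members as over the genome.

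**Figure D4:**
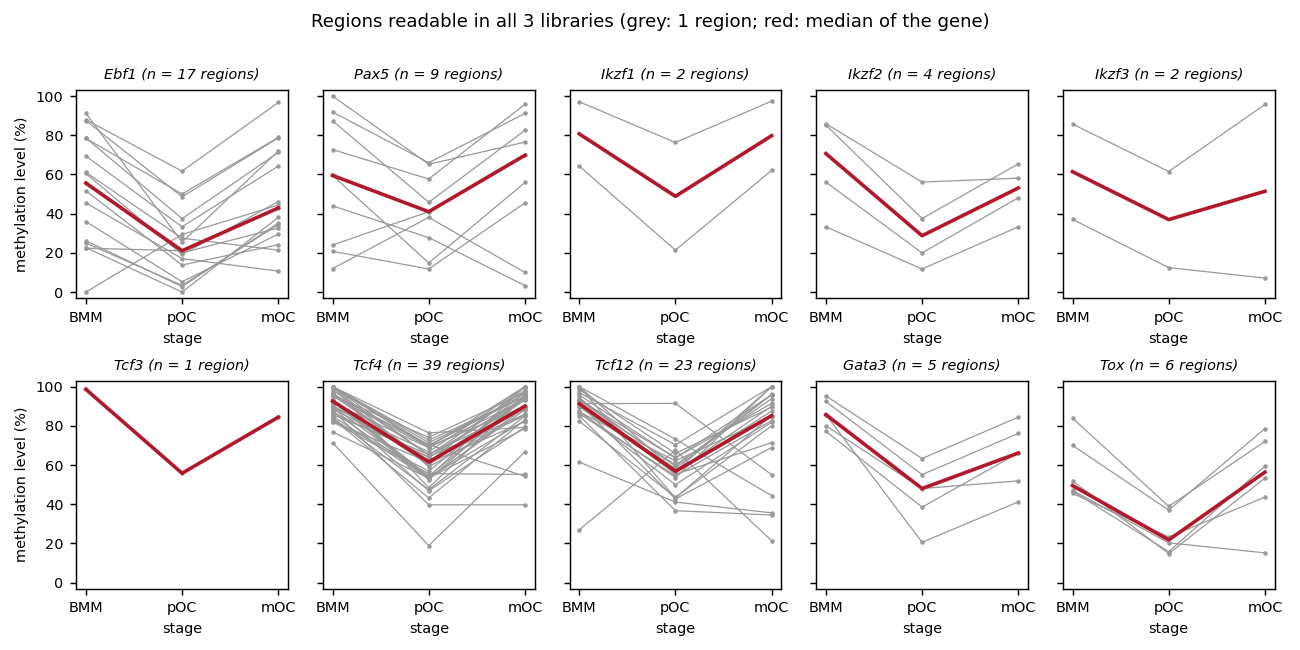
Methylation level in percent at the 3 stages for the 108 regions readable in all libraries, by gene. Each grey line is 1 region and the red line is the median of the gene. In the 39 Tcf4 regions the median goes from 92.6% in BMM to 61.5% in pOC and 90.0% in mOC, and in the 17 Ebf1 regions from 55.6% to 21.1% and 42.9%.

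By gene, the 39 Tcf4 regions had medians of 92.6%, 61.5% and 90.0% in BMM, pOC and mOC, and the 23 Tcf12 regions 91.3%, 56.8% and 85.2%. The 17 Ebf1 regions had 55.6%, 21.1% and 42.9%, and the 9 Pax5 regions 59.5%, 41.0% and 69.8%. The 5 Gata3 regions had medians of 85.7%, 48.0% and 66.1%. The mOC level was below that of BMM in all 5, as it was in 67 of the 108 regions, and 2 of the 5 were listed for that difference. In another 2 of them the interval of mOC minus BMM covered 0, at -25.8 to 3.32 and -27.5 to 9.07 points. The 6 Tox regions had medians of 49.5%, 21.8% and 56.4%, and the 4 Ikzf2 regions 70.6%, 28.8% and 53.1%. Ikzf1 and Ikzf3 had 2 such regions each and Tcf3 had 1, too few to describe by a median. Over the 108 regions the median of mOC minus BMM was -2.96 points, within a range of -55.6 to 45.8.

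**Figure D5:**
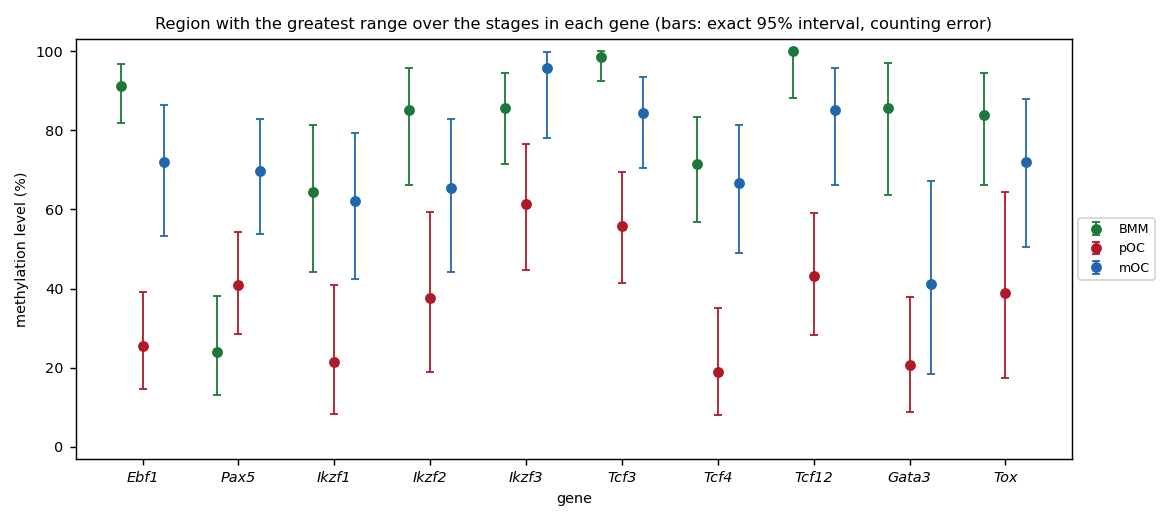
Methylation level in percent of the region with the greatest range over the stages in each gene, with exact 95% intervals for counting error as bars. The pOC level is lowest in 9 of the 10 genes. In Pax5 the order runs from 24.0% in BMM through 41.0% in pOC to 69.8% in mOC.

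The 2 regions present in all 3 tables were both in Tcf12. The first, chr9:72024201-72024400, was at 91.3% of 46 reads in BMM, 42.7% of 82 reads in pOC and 68.9% of 61 reads in mOC. The other, chr9:72068801-72069000, was at 100% of 20 reads, 73.2% of 41 reads and 44.4% of 18 reads. Their orders differ, since the level was lowest in pOC in the first and lowest in mOC in the other. The first belongs to the densest stretch of Tcf12 for mOC against pOC, 5 regions between 72024201 and 72032600 on chromosome 9 with medians of 43.5% in pOC and 85.2% in mOC. Among the other genes, the greatest range in Ikzf1 was at chr11:11766602-11766801, at 64.3%, 21.4% and 62.1%, and in Ikzf3 at chr11:98536602-98536801, at 85.7%, 61.5% and 95.7%. In Tcf4 it was at chr18:69559801-69560000, at 71.4%, 18.9% and 66.7%, and in Tox at chr4:6812803-6813002, at 83.9%, 38.9% and 72.0%.

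Members just inside the listing threshold show how small the smallest listed differences are. For pOC against BMM these were Ebf1 chr11:44718002-44718201, at 93.5% and 73.5%, and Tcf4 chr18:69685201-69685400, at 77.6% and 57.5%. For mOC against pOC, Tcf4 chr18:69581601-69581800 was at 71.1% and 91.3%. For mOC against BMM, Tcf12 chr9:71961001-71961200 was at 91.5% and 71.4%.

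Other genes of the same pathways were read from 4 lists chosen with earlier results known. Their gene counts stand beside 67.2% of all protein-coding genes that held a region for pOC against BMM. The lists and that share were not matched for gene length. The dendritic cell program, such as the receptor gene Notch2 and the transcription factor genes Runx2 and Zeb2, had medians nearest to those of the E protein genes. It had 243 lower and 2 higher regions in pOC, in 15 of 17 genes, with medians of 89.3% in BMM and 58.1% in pOC. Runx2 had 77 lower and 0 higher regions there, Notch2 61 and 1, and Zeb2 43 and 1. The greatest difference in Runx2, at chr17:44592001-44592200, was from 81.4% of 59 reads in BMM to 27.3% of 44 reads in pOC. In Zeb2, chr2:45058202-45058401 was at 84.0% of 81 reads and 29.8% of 57 reads, and in Notch2, chr3:98144201-98144400 was at 100% of 25 reads and 51.7% of 29 reads.

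The family and direct partner list, which holds relatives of the members and proteins that bind them, had 131 lower and 15 higher regions in pOC in 19 of 24 genes, with medians of 66.3% and 38.4%. Ebf2, a paralogue of Ebf1, had 19 lower and 6 higher regions. Its region chr14:67369201-67369400 was at 97.2% of 36 reads in BMM and 22.9% of 35 reads in pOC, a difference of more points than in any region of the 10 members (-85.4 to -54.6). Ebf3, another paralogue, was at 58.1% of 43 reads and 2.78% of 36 reads at chr7:137274001-137274200. Cbfa2t2, a transcriptional corepressor gene, was at 93.5% of 31 reads and 44.4% of 18 reads at chr2:154485202-154485401.

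The B cell program had 231 lower and 17 higher regions in pOC in 18 of 25 genes, with medians of 76.0% and 45.5%. Its genes with the most regions were Aff3, Bach2 and Bank1. Bach2, a repressor gene of B cell differentiation, was at 90.6% of 32 reads in BMM and 34.8% of 23 reads in pOC at chr4:32585003-32585202. Bank1, the gene of a B cell adaptor protein, was at 81.0% and 17.6% at chr3:136266801-136267000, with 21 and 17 reads. Aff3 was at 84.4% and 35.3% at chr1:38221003-38221202. The T cell program had 149 lower and 9 higher regions in 19 of 20 genes, with medians of 69.0% and 39.1%. Satb1, a chromatin organizer gene of T cells, had its greatest difference between pOC and mOC, from 12.5% of 48 reads to 62.1% of 29 reads at chr17:51805801-51806000. Skap1, a T cell adaptor gene, likewise went from 45.2% to 96.3% at chr11:96672202-96672401, and Prkcq, the gene of a T cell kinase, was at 66.7% in BMM and 18.5% in pOC at chr2:11214802-11215001.

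Between pOC and mOC these lists had 173 higher and 11 lower regions in the dendritic list, 121 and 14 in the family list, 215 and 18 in the B cell list and 128 and 13 in the T cell list. Of all regions listed for that comparison 89.1% were higher in mOC. Between BMM and mOC the regions were split more evenly, with 29 lower and 9 higher, 28 and 15, 46 and 36, and 30 and 16 in the same order. Here 58.9% of all listed regions were lower in mOC. Shares in the direction of the majority for pOC against BMM ran from 89.7% in the family list to 99.2% in the dendritic list, around the 92.9% of all listed regions.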

How the data were processed

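Whole-genome bisulfite sequencing was compared between 3 libraries (BMM, pOC and mOC). Per the file headers, each region the authors deposited carries a p-value, a cytosine number and, for both libraries, a methylated read count, a total read count and a fraction methylated. Names of the deposited comparisons give hours only, which were matched to the stages by the hours of RANKL in the growth protocol. GRCm38 is the build in the submitters' processing notes, which also list FastQC, HISAT2 and StringTie without saying what each did. Which bisulfite aligner, region caller and test were used is not given in the sources used here.

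The deposited regions were checked on their values: differences were 20.0 points or more, with at least 4 cytosines and 16 reads, and p-values reached 0.0500, 0.0917 (mOC against pOC) and 0.0500. Regions were assigned to genes by overlap of 1 bp or more with RefSeq spans of GRCm38.p6. Exons and introns were not placed, and the strand of Ikzf2, Ikzf3, Tcf4 and Tox was not used here. A level is the methylated count over the total count. A minimum of 10 reads removed 0 regions. Intervals (exact Clopper-Pearson and Newcombe) were tested on simulated independent counts, which leave out the repeated counting of a read. The overlap step was checked on deposited regions against a direct count. Named regions are, per gene and comparison, the greatest difference in each direction, the most reads, and those within 2000 bp of a gene start. Where no start window was found, the nearer gene end stood in for the start. The region with the greatest range over 3 stages was also named per gene. In each pathway list the 3 genes with the most regions were named. Not every region so named is printed, and regions lying side by side with opposite directions were added after their values were seen. Regions just inside the listing threshold, a Tcf12 region present in all 3 tables (chr9:72024201-72024400) and Tcf12 chr9:71889801-71890000 were also named outside this rule. Members and lists were chosen with earlier results of these data known. Alternatives were a minimum of 30 reads, a difference of 30 points, a deposited p-value of at most 0.001, whole regions inside the gene, spans extended by 5000 bp, leaving out the gene with the most regions, read-weighted means, and matching regions by overlap. Python 3.11.15, NumPy 2.4.6, pandas 2.3.3, SciPy 1.17.1 and matplotlib 3.10.9 were used.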

Additional observations from a re-analysis of the deposited data

How the results depend on the processing

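No paired analysis was possible because each stage had 1 library. Of 37 alternatives 29 left a value within its margin (the 95% interval of a share or median, or a limited ratio for a count), 8 moved it further and 0 reversed a direction. These margins take regions as independent, although regions share libraries. The alternatives draw on largely the same listed regions, so values were likely to stay close and the tally does not measure robustness. Keeping only differences of 30 points or more put 98.6% of the members' listed regions lower in pOC than in BMM, and keeping only deposited p-values of at most 0.001 put 100% of 68 regions lower. At the same p-value limit 100% of 23 regions were higher in mOC than in pOC, while 50.0% of 2 regions were lower in mOC than in BMM and 2 of the 10 genes held a region in that comparison. These stricter limits use the contrast for which the regions were listed. Shares of all listed regions and genes under them were not obtained, so these values say nothing particular to the members. Read-weighted means in place of medians gave 79.5% in BMM and 50.0% in pOC for pOC against BMM, and 75.4% in mOC for mOC against pOC. Without Tcf4, the gene with the most regions, 93.2% of regions were lower in pOC and 90.1% higher in mOC than in pOC. For mOC against BMM, Ebf1 and Tcf12 each held 11 regions. Without Ebf1, which had 5 lower and 6 higher regions, 73.2% of regions were lower in mOC than in BMM, against 67.3% with all members. Tcf12, with 10 lower and 1 higher, was not left out in turn, and its removal would lower that share. Matching regions by overlap gave 127 regions with levels in all 3 stages in place of 108. The read count per region, and 1 library per stage, limit every single-region value.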

Other observations

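Several regions that lay within 1000 bp of each other in 1 gene differed in opposite directions, in 11 pairs over the 3 comparisons. A pair is counted in each comparison that listed it. The Pax5 pairs given below recur in this way, so there are fewer distinct pairs. In Tcf4 the adjoining regions chr18:69500201-69500400 and chr18:69500401-69500800 were at 19.2% and 61.7% in BMM and at 46.7% and 26.0% in pOC, so the one that was lower in BMM was the higher one in pOC. In Ikzf2, chr1:69667803-69668002 was at 56.1% in BMM and 20% in pOC, while chr1:69668403-69668602, 400 bp away, was at 18.2% and 42.1%. In Gata3, adjoining regions that also lie in another annotated gene were at 66.7% in pOC and 31.2% in mOC (chr2:9885602-9885801) and at 63.6% and 90.9% (chr2:9885802-9886001). Pax5 held such a pair in each comparison: besides the pair 400 bp apart described above, chr4:44572403-44572602 was at 20.8%, 11.8% and 45.5% in BMM, pOC and mOC, and chr4:44573403-44573602, 800 bp away, at 44.0%, 27.8% and 3.33%. These pairs were picked out after their values were seen, each rests on 1 library per stage, and how often such pairs occur in other genes was not tested.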
